A study of Homo sapiens with 12 samples.

Results

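The genes of the Notch pathway described here, across proliferating and senescent human fibroblasts, are the receptors NOTCH1, NOTCH2 and NOTCH3, the ligands JAG1 and JAG2, and the target genes HES1, HEY1 and HEY2. They were chosen by symbol, and each matched 1 row of the deposited gene table, so they make up 8 of the 16383 genes listed. RNA sequencing measured poly(A) RNA from IMR90, an established human fibroblast line grown out of lung and labelled wild type in every sample. The proliferating group received neither radiation nor drug. The other 3 groups received 20 Gy of ionizing radiation over 10 minutes, which drives such cells into senescence, a lasting arrest of division accompanied by secretion of cytokines and growth factors. They were then given the solvent DMSO, 2 µM palbociclib or 2 µM ruxolitinib. The inhibitors were given on days 4, 6, 8 and 10, and cells were harvested on day 11. Palbociclib inhibits the cell cycle kinases CDK4 and CDK6, and ruxolitinib inhibits the cytokine receptor kinases JAK1 and JAK2. Each of the 4 groups held 3 libraries. All of them come from 1 cell line, and nothing in the labels says that the libraries of a group were separate cultures, so p-values measure the spread between libraries, which may be technical. The proliferating group differed from the others in radiation and may have differed in solvent and time in culture. No harvest day is labelled for it. Radiation, solvent and time in culture cannot be told apart.

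Notch signalling passes between touching cells. A Jagged or Delta ligand on a neighbouring cell binds a Notch receptor, the receptor is cut by an ADAM protease and then by γ-secretase, and the freed intracellular domain enters the nucleus. There it binds the DNA-binding protein RBPJ together with a MAML coactivator and switches on HES and HEY genes, which encode transcriptional repressors. In fibroblasts, Notch is known as a regulator of the senescent secretory programme, and NOTCH3 and the HES and HEY genes are familiar readouts of its activity.

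HES1 is the textbook direct target of RBPJ, so its promoter is shown first. All sequences come from RefSeq on GRCh38.p14, where 7 of the 8 genes had an entry, and run 5′ to 3′ on the strand of the gene. The RBPJ word searched for was GTGNGAA on both strands, of which GTGGGAA is a special case, and capitals mark its matches. HES1 is shown over the 250 bases before its start, chr3:194135898-194136147 on the plus strand. HES4, another HES gene expressed in these cells, is shown over 60 bases of its promoter, chr1:1000138-1000197 on the minus strand, because it carries the same arrangement. HEY2 is shown over 60 bases, chr6:125749392-125749451 on the plus strand, because it has a single match.
HES1: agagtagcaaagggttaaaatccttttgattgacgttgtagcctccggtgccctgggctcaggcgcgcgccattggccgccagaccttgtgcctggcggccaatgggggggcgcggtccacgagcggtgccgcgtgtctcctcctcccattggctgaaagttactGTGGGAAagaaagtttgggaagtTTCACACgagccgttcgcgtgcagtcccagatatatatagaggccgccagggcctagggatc
HES4: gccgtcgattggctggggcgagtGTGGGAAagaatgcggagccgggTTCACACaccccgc
HEY2: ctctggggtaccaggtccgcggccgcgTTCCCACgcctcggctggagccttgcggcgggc
The HES1 promoter held a match 85 bases before the start and a second one on the opposite strand 62 bases before it, with 16 bases between them. In HES4 the pair stood 77 and 54 bases before the start, at the same spacing. The spacing was taken from HES1 after it had been seen, and 3 of 35116 promoters (0.00854%) held a pair at that distance and orientation. They were those of HES1 itself, HES4 and ITIH4, the last a gene in none of the Notch lists used here. At least 1 GTGNGAA match was found in 11.6% of all promoters of this length and GTGGGAA in 5.43%. None of NOTCH1, NOTCH2, NOTCH3, JAG1 and JAG2 held a match in this window, which says nothing about binding elsewhere. A match is a description of the letters and not a measured binding site.

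Recovered depth, summed over the listed genes, ranged from 14106799 to 21762412 reads per library. Values below are the authors' normalized counts, and values per kilobase divide them by the summed length of the exons in GENCODE v44. A set of 3 libraries stood apart most within their groups by exon length. The 10% of genes with the most exon bases lay below their group mean in proliferating library A126 (median log2 deviation -0.11) and palbociclib library A120 (-0.12). They lay above it in palbociclib library A119 (0.11). Proliferating library A127 deviated by 0.081 and was not put in this set. The fibroblast markers all had reads, with a summed level of 1053810 to 1096830 in proliferating, 601705 to 608547 in DMSO, 870811 to 926061 in palbociclib and 717619 to 725041 in ruxolitinib libraries. Most of that sum was COL1A1, FN1, COL1A2 and VIM. From proliferating to DMSO libraries THY1 rose (8552 to 9050, then 9575 to 10271), as did DCN (11609 to 12044, then 12686 to 13717). The other fibroblast markers fell. The summed endothelial markers reached 1681 to 1949, 2394 to 2558, 3503 to 4381 and 2250 to 2256 in the same order of groups. Nearly all of that sum was TEK, while the defining endothelial genes CDH5 and CLDN5 had 6 and 26 reads over all 12 libraries. The epithelial list summed to 332 to 444, 560.2 to 671, 847 to 1048 and 620.3 to 667, mostly from KRT8 (4257 reads over the 12 libraries) and KRT19 (3192), with 295 reads of EPCAM, 55 of CDH1, 2 of SFTPC and 1 of KRT5. The mural list, for pericytes and smooth muscle, where NOTCH3 is known from, had reads of all 5 genes and summed to 11098 to 11721, 6422 to 6589, 7057 to 7189 and 5778 to 6065. Nearly all of that sum was MCAM (50720 reads over the 12 libraries) and CSPG4 (38648), with 1546 reads of RGS5, 977 of KCNJ8 and 708 of DES. RGS5 alone had a higher mean with DMSO than in proliferating libraries, at 120 to 143 against 73.2 to 90.5 normalized counts. The part of these shifts in the results below was not tested. In bulk RNA, fewer cells of a kind and less RNA per cell cannot be told apart.

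After irradiation and DMSO, the Jagged ligands JAG1 and JAG2 rose, NOTCH2 rose by a small amount, and NOTCH1, NOTCH3 and HES1 fell. The Delta ligand DLL4, which is not among the 8 genes, fell as well. Palbociclib lowered NOTCH1, JAG1, HES1 and HEY1 below the DMSO level and raised NOTCH3 above that of every other group. Ruxolitinib left JAG1, JAG2, HES1 and HEY1 without a call, and its only calls were a lower NOTCH1 and a higher NOTCH3. Of the 7 genes with enough reads to be tested, 6 passed an adjusted p of 0.05 in senescent DMSO against proliferating cells, 3 higher and 3 lower, where 72.4% of all tested genes passed, 33% higher and 39.3% lower. Palbociclib against DMSO called 5 of 7, 1 higher and 4 lower, where 48.3% of all genes passed, 26% higher and 22.3% lower. Ruxolitinib against DMSO called 2 of 7, 1 in each direction, where 4.52% of all genes passed, 1.1% higher and 3.42% lower. Palbociclib against ruxolitinib called 5 of 7, 1 higher and 4 lower, where 40.4% passed, 22.8% higher and 17.6% lower. Against proliferating cells, palbociclib called 6 of 7, 3 higher and 3 lower, where 73.8% passed, 35.2% higher and 38.6% lower. Ruxolitinib against proliferating called 4 of 7, 2 higher and 2 lower, where 72.2% passed, 32.6% higher and 39.5% lower. Most genes of the table thus changed with irradiation, and a count of 6 of 7 is near that background. JAG2 passed the filter on low values only through the senescent groups, where it is high, so its place in the counts against proliferating cells is no support for them. The median log2 fold change of the 7 genes was -0.11 between DMSO and proliferating cells, where that of all genes was -0.05, and -0.55 with palbociclib against DMSO, where that of all genes was 0.02. The comparisons share libraries with each other.

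**Figure D1:**
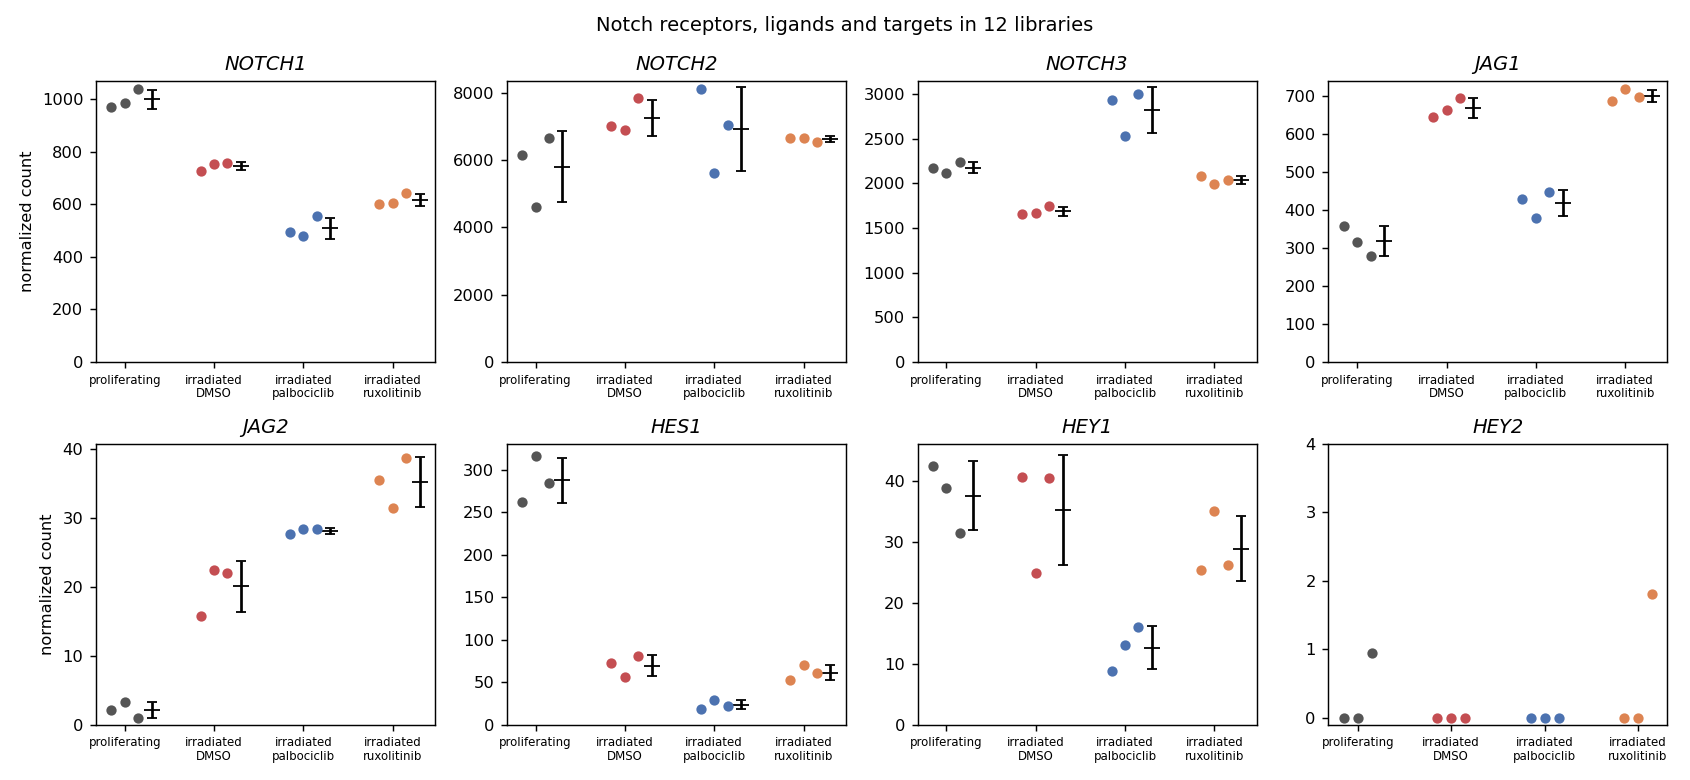
Normalized counts (linear axis, from 0 except HEY2) of the 8 Notch genes in each of the 12 libraries, by group. Points are libraries, and the black dash and bar beside them are the mean and SD, left out for HEY2. HES1 fell from 288 in proliferating to 23.5 in palbociclib libraries, while NOTCH3 was highest in palbociclib libraries at 2818.

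NOTCH1 (Entrez 4851, chr9:136494433-136546048 on GRCh38) encodes the most widely studied Notch receptor. Its normalized counts were 971, 984 and 1039.85 in proliferating libraries, 728, 753 and 755 after irradiation with DMSO, 496, 477 and 553 with palbociclib, and 600.3, 603 and 642 with ruxolitinib. No group overlapped another, and the order ran from proliferating through DMSO and ruxolitinib down to palbociclib. The means were 998 ± 36.6, 745 ± 15.3, 615 ± 23.5 and 509 ± 39.7 in that order (SD, n = 3 each). NOTCH1 fell by 0.42 on the log2 scale after irradiation with DMSO (SE 0.066, adjusted p = 3.19e-05). It fell by a further 0.55 with palbociclib against DMSO (log2 difference -0.55, adjusted p = 7.29e-06). With ruxolitinib the difference from DMSO was -0.28 (adjusted p = 0.0243). That ruxolitinib call was lost when any of A116, A117, A118, A122 or A123 was left out, at adjusted p between 0.0616 and 0.115. The palbociclib minus ruxolitinib difference was -0.28 (adjusted p = 0.00365). Without the 3 libraries that stood apart by exon length, which leaves A121 as the only palbociclib library, that difference was -0.15. Palbociclib minus proliferating came to -0.97 (adjusted p = 1.98e-09).

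NOTCH3 (Entrez 4854, chr19:15159038-15200995) encodes a receptor known from vascular smooth muscle and other mesenchymal cells. Its libraries held 2169, 2120.5 and 2236 normalized counts in proliferating cells, 1655, 1664 and 1747 with DMSO, 2933, 2525 and 2995 with palbociclib, and 2084, 1992 and 2039 with ruxolitinib. The palbociclib libraries lay above all others and the DMSO libraries below all others. Group means were 2175 ± 58.0 in proliferating, 1689 ± 50.7 in DMSO, 2818 ± 255 in palbociclib and 2038 ± 46.1 in ruxolitinib libraries (SD, n = 3 each). NOTCH3 fell by 0.36 on the log2 scale after irradiation with DMSO (SE 0.061, adjusted p = 6.11e-05). With all libraries brought to an equal total this difference was -0.14 and narrowly not called (adjusted p = 0.0504). Palbociclib raised NOTCH3 by 0.73 over DMSO (adjusted p = 1.44e-07), by 0.46 over ruxolitinib (adjusted p = 2.52e-05) and by 0.37 over proliferating cells (adjusted p = 5.08e-05). The DMSO to palbociclib rise without the 3 libraries that stood apart was 0.83, with A121 as the only palbociclib library left. Ruxolitinib raised NOTCH3 by 0.27 over DMSO (adjusted p = 0.0174), a call lost without A116, A117, A122 or A124, at adjusted p between 0.0707 and 0.0920, and in a fit whose variance had no trend with the mean (adjusted p = 0.0526). Ruxolitinib and proliferating libraries were neighbours in the order, with a log2 difference of -0.09 that was not called (adjusted p = 0.180). It turned to 0.11 at the same total and was called at -0.11 without the 3 libraries that stood apart (adjusted p = 0.0240).

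NOTCH2 (Entrez 4853, chr1:119911553-120069662) was the most abundant of the receptors per kilobase. Its partial copies, the NOTCH2NL genes, lie on the same chromosome, so its reads may be split with them and its counts are uncertain. It had 6161, 4614 and 6656 normalized counts in proliferating libraries, 7031, 6886 and 7855 with DMSO, 8107, 5607 and 7055 with palbociclib, and 6672, 6673 and 6529 with ruxolitinib. The groups overlapped, except that the DMSO libraries all lay above the proliferating ones and above those with ruxolitinib. The low proliferating library was A126 and the low palbociclib library A120, both of which were low for genes with many exon bases. NOTCH2 has 16744 exon bases, and the part of exon length in its low values was not tested. The mean rose from 5810.4 ± 1066 to 7257 ± 523 after irradiation with DMSO (SD, n = 3 each), a log2 fold change of 0.34 (SE 0.13, adjusted p = 0.0247). The call was lost without A126 (0.18, adjusted p = 0.140), without A118 (0.28, adjusted p = 0.0987) and in the fit without a trend (adjusted p = 0.0660). Palbociclib minus DMSO was -0.08, with a 95% interval of -0.35 to 0.18, and ruxolitinib minus DMSO was -0.13. Neither was called (adjusted p = 0.612 and 0.693). The palbociclib difference was called at the same total (-0.31, adjusted p = 0.0405) and under quantile normalization (-0.33, adjusted p = 0.0236), and turned to 0.062 without A120. The ruxolitinib difference was called in a fit of only the 2 groups (adjusted p = 0.0196) and without the 3 libraries that stood apart (adjusted p = 0.0361). Palbociclib minus proliferating was 0.25 and not called by limma (adjusted p = 0.0790), while edgeR (adjusted p = 0.0420) and DESeq2 (adjusted p = 0.0281) called it. The calls on NOTCH2 thus depended on the setting in each of these comparisons.

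**Figure D2:**
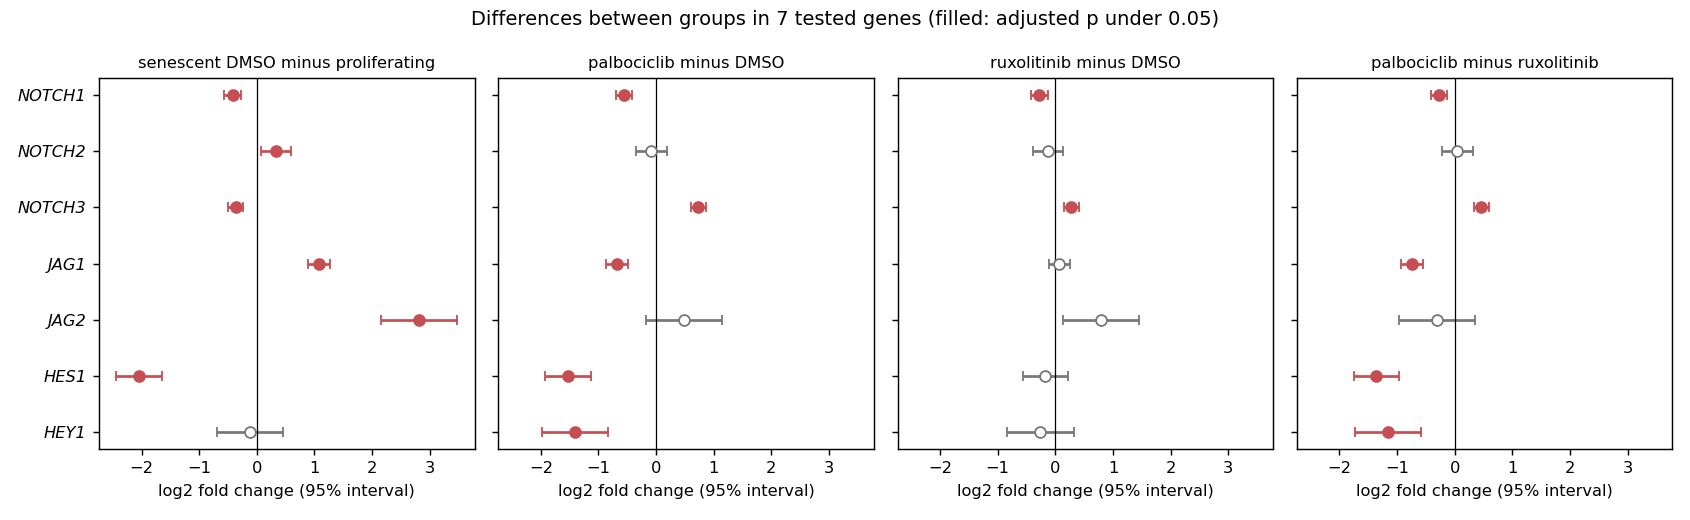
Log2 differences of the 7 tested Notch genes in 4 comparisons, with 95% intervals from limma and filled points for an adjusted p under 0.05. The senescent DMSO minus proliferating difference spans -2.04 for HES1 to 2.82 for JAG2, and the ruxolitinib minus DMSO differences span -0.28 for NOTCH1 to 0.79 for JAG2.

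Set against each other per kilobase, NOTCH2 led in every group. In proliferating cells the receptors reached 347 (NOTCH2), 231 (NOTCH3) and 79.7 (NOTCH1) normalized counts per kilobase. In palbociclib-treated cells the same levels were 413, 299 and 40.6. NOTCH3 supplied 35.4% ± 3.10 of the summed receptor level in proliferating, 26.7% ± 0.678 in DMSO, 39.9% ± 2.35 in palbociclib and 32.8% ± 0.530 in ruxolitinib libraries (SD, n = 3 each). Proliferating and palbociclib libraries overlapped in this share, from 33.1% to 38.9% and from 37.3% to 41.9%, as did proliferating and ruxolitinib libraries. The NOTCH1 share was 12.2% ± 1.18, 8.86% ± 0.421, 5.44% ± 0.625 and 7.42% ± 0.325 in the same order, with no overlap.

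The ratio of NOTCH3 to NOTCH1 within a library does not depend on how libraries are scaled. Per kilobase it was 2.97, 2.87 and 2.86 in proliferating libraries, 3.03, 2.95 and 3.08 with DMSO, 7.88, 7.05 and 7.21 with palbociclib, and 4.62, 4.40 and 4.23 with ruxolitinib. Proliferating and DMSO libraries overlapped, and both inhibitor groups stood above them without overlap. The exact two-sided permutation p was 0.2 for DMSO against proliferating and 0.1 for each inhibitor against DMSO. With 3 libraries against 3, 0.1 is the smallest p the design allows, and over the 28 such tests run the adjusted values were 0.233 and 0.122.

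**Figure D3:**
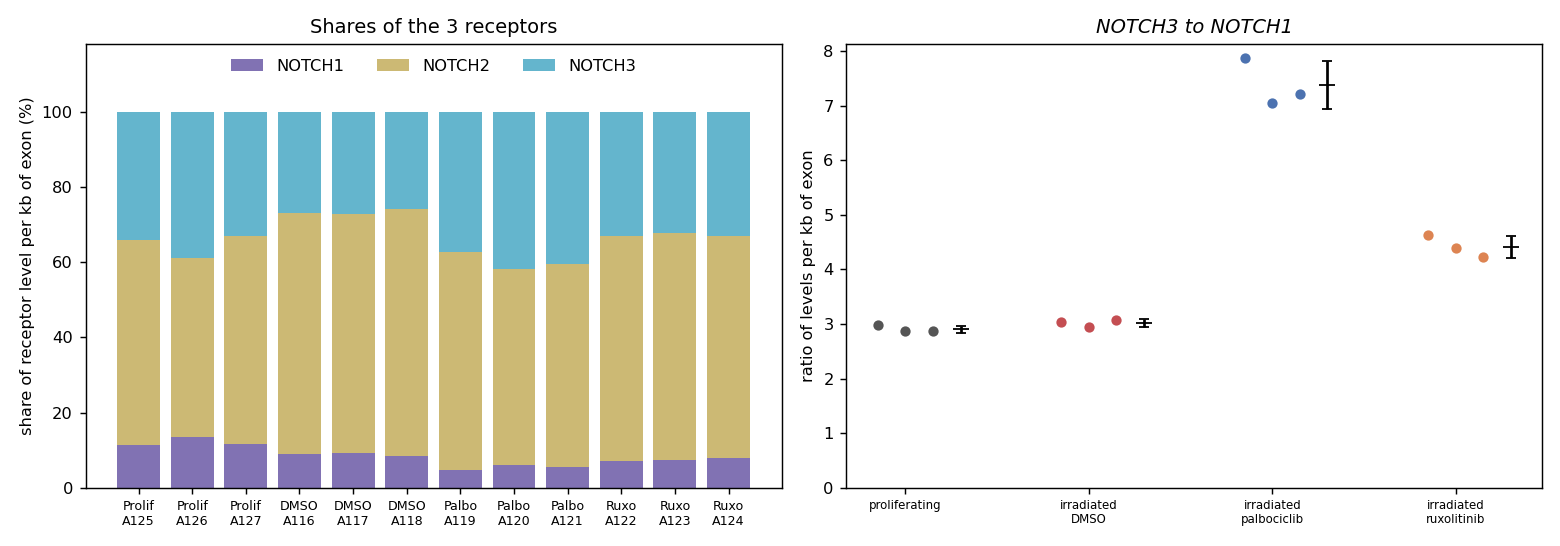
Stacked share (%) of each Notch receptor in the summed receptor level per kilobase of exon, and the NOTCH3 to NOTCH1 ratio, in each library by group, with mean and SD. The ratio lies between 2.86 and 3.08 in proliferating and DMSO libraries, between 4.23 and 4.62 with ruxolitinib and between 7.05 and 7.88 with palbociclib.

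JAG1 (Entrez 182, chr20:10637684-10673999) encodes the main Jagged ligand of mesenchymal cells. Of its exon bases, 3.29% overlap a gene on the opposite strand, and whether counting used strand is not given in the sources used here. JAG1 had 358, 315 and 279 normalized counts in proliferating libraries, 643, 663 and 695 with DMSO, 428, 379 and 447 with palbociclib, and 686, 717 and 697 with ruxolitinib. Palbociclib libraries lay between the proliferating ones and the other senescent groups, and only DMSO and ruxolitinib overlapped. The means were 317 ± 39.5, 667 ± 26.0, 418 ± 35.2 and 699.8 ± 15.7 in the same order (SD, n = 3 each). Irradiation with DMSO raised JAG1 by 1.08 on the log2 scale (SE 0.088, adjusted p = 2.25e-08). With palbociclib it fell by 0.68 against DMSO (adjusted p = 1.74e-05) and stayed 0.40 above proliferating cells (adjusted p = 0.000735). Ruxolitinib minus DMSO was 0.07 and not called (adjusted p = 0.776), and palbociclib minus ruxolitinib was -0.75 (adjusted p = 8.72e-06).

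JAG2 (Entrez 3714, chr14:105140995-105168776), the other Jagged ligand, was near 0 in proliferating cells, where the 3 libraries held 2, 3 and 1 reads. Another gene on the same strand shares 7.33% of its exon bases, so some reads may not be its own. Normalized counts were 2.08, 3.33 and 0.952 in proliferating libraries, 15.8, 22.5 and 22 with DMSO, 27.7, 28.5 and 28.4 with palbociclib, and 35.5, 31.5 and 38.8 with ruxolitinib. All 9 senescent libraries lay above all proliferating ones, and the senescent groups did not overlap each other. DMSO libraries held 54 reads in all against 6 in proliferating libraries, a depth-adjusted ratio of 9.65 with an exact 95% interval of 4.16 to 27.4 that covers counting error only. Since JAG2 passed the filter only through the senescent groups, its test of DMSO against proliferating cells is taken from the fit with no filter on low values, which covered all genes with reads. There the log2 fold change on the scale of normalized count plus 1 was 2.82 (adjusted p = 1.10e-06), and under quantile normalization with the filter it was 1.07. In the main fit with the filter, the differences from DMSO were 0.48 with palbociclib (95% interval -0.18 to 1.15, adjusted p = 0.215) and 0.79 with ruxolitinib (adjusted p = 0.209), and neither was called. Under quantile normalization both were called, at 1.05 (adjusted p = 0.00386) and 1.01 (adjusted p = 0.0303), and ruxolitinib was also called in a fit of only the 2 groups (adjusted p = 0.0296). Palbociclib libraries thus lay above DMSO libraries for JAG2 and below them for JAG1. Per kilobase JAG2 reached 3.14 and JAG1 71.7 normalized counts in DMSO libraries.

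HES1 (Entrez 3280, chr3:194136148-194138732), whose promoter is printed above, encodes a repressor that also acts on its own gene. Its normalized counts were 263, 316 and 285 in proliferating libraries, 72.3, 55.6 and 80.9 with DMSO, 18.8, 29.6 and 22.2 with palbociclib, and 52.5, 70.2 and 61.4 with ruxolitinib. Proliferating libraries lay above and palbociclib libraries below all others, and DMSO and ruxolitinib overlapped. Group means were 288 ± 26.9, 69.6 ± 12.9, 23.5 ± 5.49 and 61.4 ± 8.88 in the same order (SD, n = 3 each). HES1 fell by 2.04 on the log2 scale after irradiation with DMSO (SE 0.19, adjusted p = 7.46e-08). Palbociclib minus DMSO was -1.53 (adjusted p = 8.29e-06) and palbociclib minus proliferating -3.58 (adjusted p = 7.52e-11). The palbociclib minus ruxolitinib difference was -1.36 (adjusted p = 3.48e-05). Ruxolitinib minus DMSO was -0.17, with a 95% interval of -0.57 to 0.22, and was not called (adjusted p = 0.729).

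HEY1 (Entrez 23462, on chromosome 8) encodes a related repressor that acts with or beside the HES proteins. It had 42.5, 38.8 and 31.4 normalized counts in proliferating libraries, 40.6, 24.9 and 40.5 with DMSO, 8.85, 13.1 and 16.0 with palbociclib, and 25.5, 35.1 and 26.2 with ruxolitinib. Only the palbociclib libraries stood apart, below all the others. The means were 37.6 ± 5.66, 35.3 ± 9.05, 12.7 ± 3.59 and 28.9 ± 5.38 (SD, n = 3 each). HEY1 fell by 1.41 on the log2 scale with palbociclib against DMSO (SE 0.27, adjusted p = 0.000537), and palbociclib minus ruxolitinib was -1.15 (adjusted p = 0.00317). The difference from ruxolitinib was not called under quantile normalization (-0.68, adjusted p = 0.0568). Without the 3 libraries that stood apart, which leaves A121 as the only palbociclib library, that difference was -0.80. DMSO minus proliferating was -0.11 (adjusted p = 0.720), a direction that turned to 0.038 at the same upper quartile and to 0.11 at the same total. Under quantile normalization the direction held and the difference was called at -0.61 (adjusted p = 0.0483). The GENCODE exons of HEY1 add up to 5487 bases, more than the 3758 bases of its RefSeq gene, so its level per kilobase rests on that length, while a change of the ratio between groups does not. With this length the HES1 to HEY1 ratio per kilobase was 20.8 ± 3.94 in proliferating libraries and 5.35 ± 0.610 with DMSO, 5.12 ± 1.24 with palbociclib and 5.69 ± 0.491 with ruxolitinib (SD, n = 3 each).

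HEY2 (Entrez 23493, chr6:125749632-125761269), known from the developing heart and arteries, had 3 reads over all 12 libraries, 1 in a proliferating and 2 in a ruxolitinib library. It was not tested and no fold is given. A library with 0 reads allows up to 2.31 to 3.55 normalized counts, depending on its depth, with 3 reads as the limit. At this depth a low level of HEY2 was not detectable.

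The remaining pathway genes were taken from role lists of 55 genes, of which 51 were listed and 46 tested. The deposited gene table ends at Entrez 140467. MIB2, DTX3, HES5 and NRARP were not listed in it, so their levels are not known here. Shares of all genes likewise cover listed genes only. Between DMSO and proliferating cells 35 of the 46 were called, 21 higher and 14 lower. Over all tested genes 72.4% were called, 33% higher and 39.3% lower. At the same total the split of the 46 was 26 higher and 10 lower. MFAP5, HES2, NEURL1 and DLL3, all among the higher genes, averaged under 10 in proliferating libraries. They passed the filter on low values through senescent groups, so their place in the counts against proliferating cells is no support for those counts. With palbociclib against DMSO 18 of the 46 were called, 7 higher and 11 lower, against 1 higher and 26 lower at the same total. Over all tested genes 48.3% were called, 26% higher and 22.3% lower. DLL3, among the lower genes, averaged 15.8 with DMSO, 6.11 with palbociclib and 10.4 with ruxolitinib. It passed the filter on low values through the DMSO group, where it is high, so its place in this count is no support for it either. Scaling to the same total moves the median of all genes by 0.23 in the first comparison and by -0.23 in the second, so the balance of directions in these counts rests on the scaling. The share of all genes called at the same total or upper quartile is not given. Counts under those scalings, here and in the lists below, thus have no background beside them. The median log2 fold change of the pathway genes was 0.07 between DMSO and proliferating cells, where that of all genes was -0.05, and -0.04 with palbociclib, where that of all genes was 0.02. With ruxolitinib against DMSO 0 of 46 were called by limma, edgeR or DESeq2, where limma called 4.52% of all genes. A count of 0 of 46 is near that background. An unadjusted p under 0.05 in limma was reached by 4 of the 46, and by 1776 of all 11242 tested genes.

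Among the other receptors and ligands, the Delta ligand DLL4, known from sprouting vessels, had the largest changes of those with a mean of at least 100. Its libraries held 965, 853 and 794 normalized counts in proliferating cells, 293, 297 and 313 with DMSO, 108, 88.7 and 80.8 with palbociclib, and 238, 247 and 240.02 with ruxolitinib. No group overlapped another. DLL4 fell by 1.52 on the log2 scale after irradiation with DMSO (SE 0.10, adjusted p = 2.67e-09), and palbociclib minus DMSO was -1.70 (adjusted p = 4.93e-09). Over 26 other settings the palbociclib difference ranged from -1.93 to -1.54. Ruxolitinib minus DMSO was -0.32 and not called (adjusted p = 0.115). The order of the DLL4 groups was that of NOTCH1 and HES1, and JAG1 and JAG2 went the other way after irradiation. MFAP2, a microfibril protein, fell by 1.43 after irradiation (adjusted p = 3.34e-06). NOTCH4 and DLL1 had 0 reads in all 12 libraries.

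**Figure D4:**
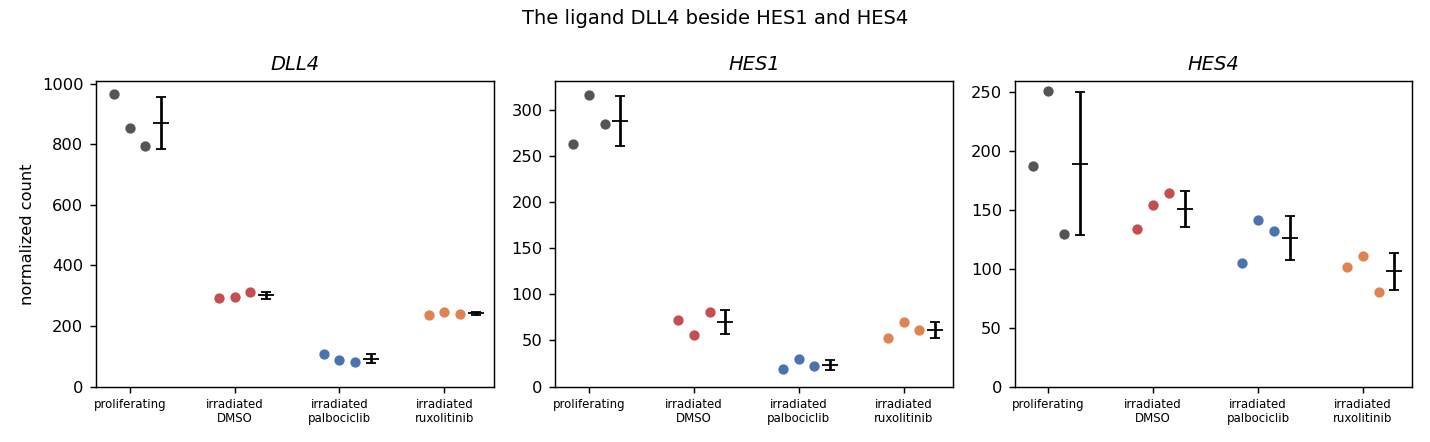
Normalized counts (linear axis) of the ligand DLL4 and of HES1 and HES4 in each library, by group. Points are libraries, with mean and SD beside them. DLL4 fell from 871 in proliferating to 301.2 in DMSO and 92.7 in palbociclib libraries.

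HES4 shares the paired promoter matches of HES1, and no call was made on it between DMSO and proliferating cells or for either inhibitor against DMSO. It had 187, 251 and 129.5 normalized counts in proliferating libraries, 134, 154 and 164 with DMSO, 105, 141 and 132 with palbociclib, and 102, 111 and 80.3 with ruxolitinib. The proliferating libraries overlapped those of DMSO, and the ruxolitinib libraries lay below all DMSO libraries. DMSO minus proliferating was -0.28 (adjusted p = 0.215), palbociclib minus DMSO was -0.26 (adjusted p = 0.297) and ruxolitinib minus DMSO was -0.63 (adjusted p = 0.0993). Against proliferating cells HES4 was called lower with ruxolitinib (-0.91, adjusted p = 0.000706) and with palbociclib (-0.54, adjusted p = 0.0230). The palbociclib call was lost under quantile normalization (-0.31), among other settings, and without A125, A126 or A119, where the difference was -0.52, -0.31 and -0.41.

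Of the genes of receptor glycosylation and cleavage, 11 of 13 tested were called after irradiation, 9 higher and 2 lower, where 33% of all genes were called higher and 39.3% lower. At the same total the split was 11 higher and 1 lower, and at the same upper quartile 10 higher and 1 lower. APH1B and NCSTN, both γ-secretase subunits, rose by 1.19 (adjusted p = 7.78e-10) and 0.67 (adjusted p = 1.55e-08), while APH1A, the alternative subunit to APH1B, fell by 0.59 (adjusted p = 7.54e-07). Palbociclib against DMSO called 5 of these 13, all higher, where 48.3% of all genes were called and 26% were called higher. At the same total the split turned to 1 higher and 5 lower. RFNG, a Fringe glycosyltransferase, was higher by 0.51 (adjusted p = 0.000559). FURIN, the protease that cuts Notch during its passage to the surface, rose by 0.30 (adjusted p = 7.21e-05) but by only 0.07 at the same total, where it was not called.

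In the nuclear complex 13 of 15 tested genes were called after irradiation, 4 higher and 9 lower. Over all tested genes 72.4% were called, 33% higher and 39.3% lower. At the same total the split of the 15 was 4 higher and 7 lower. The coactivator MAML1 fell by 1.06 (adjusted p = 7.18e-08) and the histone deacetylase HDAC2 fell by 0.88 (adjusted p = 6.02e-10), while MAML3 rose by 0.79 (adjusted p = 7.89e-05). RBPJ itself, named here for its role and not by the size of its change, rose from 3352 ± 169 to 4029 ± 91.5 normalized counts (SD, n = 3 each), a log2 fold change of 0.27 (adjusted p = 0.000597). Palbociclib against DMSO called 6 of 15, all lower, where 48.3% of all genes were called and 22.3% lower. At the same total 12 of 15 were called, all lower, but that scaling moves the median of all genes by -0.23. The 6 genes were led by the acetyltransferase EP300 at -0.65 (adjusted p = 0.00340) and the corepressor SPEN at -0.53 (adjusted p = 0.0104). EP300 and SPEN, like NOTCH2, were low in palbociclib library A120. Without the 3 libraries that stood apart, which leaves A121 as the only palbociclib library, they differed by -0.55 and -0.32. RBPJ minus DMSO was -0.09 with palbociclib and not called (adjusted p = 0.209).

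Of the genes of receptor turnover, 3 of 6 rose after irradiation and none fell, where 33% of all genes rose. At the same total 6 of 6 rose, but that scaling moves the median of all genes by 0.23. NUMB, an endocytic inhibitor of Notch, rose by 0.82 (adjusted p = 7.68e-10) and the ubiquitin ligase DTX4 by 1.03 (adjusted p = 4.81e-09). DTX4 went from 339 ± 4.99 in proliferating to 694.6 ± 54.3 in DMSO libraries and stood at 476 ± 13.9 with palbociclib (SD, n = 3 each), a log2 difference of -0.54 from DMSO (adjusted p = 2.77e-05). FBXW7, a ubiquitin ligase that marks the Notch intracellular domain for destruction, fell by 0.28 with palbociclib (adjusted p = 0.0162), a call lost without A116 (-0.19, adjusted p = 0.0959) and without A121 (-0.24, adjusted p = 0.0610). DTX4 thus followed the order of JAG1 between these 3 groups. Among the ligand ubiquitin ligases, MIB1 fell by 0.42 after irradiation (adjusted p = 0.00799), a call lost under quantile normalization and with libraries at an equal total or upper quartile.

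**Figure D5:**
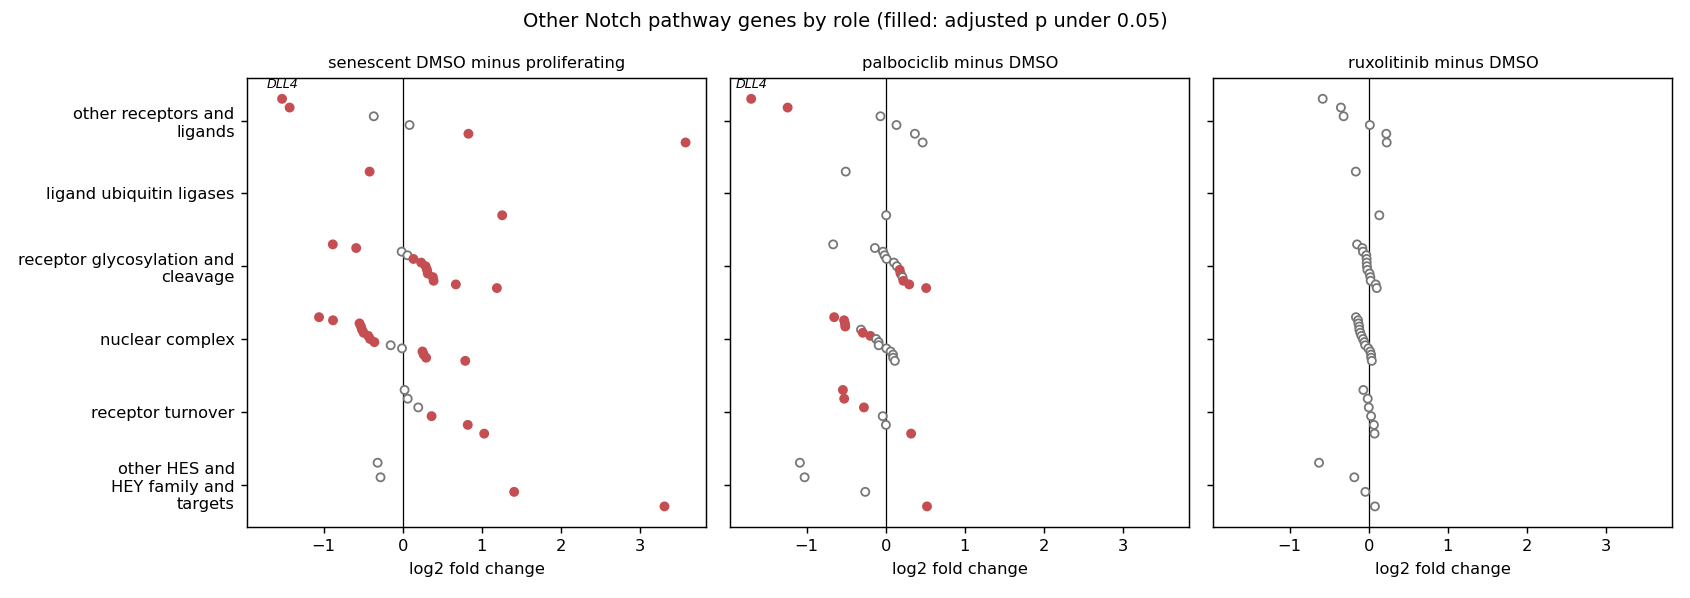
Log2 differences of the Notch pathway genes by role list, for senescent DMSO minus proliferating, palbociclib minus DMSO and ruxolitinib minus DMSO; each point is a gene, filled where called. With ruxolitinib none of the 46 tested pathway genes was called, where 4.52% of all tested genes were.

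The genes most like each member were found by Pearson correlation of log2 values over the 12 libraries, among genes with a mean of at least 100. These are descriptions with no test, since the libraries share their groups and the large changes between groups dominate. HES1 was closest to KIF15, MYBL2 and BIRC5 (r = 0.992 each), genes of mitosis and the cell cycle. BIRC5, for example, had mean normalized counts of 3327 in proliferating, 468 in DMSO, 73.6 in palbociclib and 339 in ruxolitinib libraries. NOTCH1 was closest to SLC43A3 (0.988), RUNX1 (0.981) and LHFPL2 (0.980). NOTCH3 was closest to GFRA1 (0.982), ITGA3 (0.976) and LOXL2 (0.971), the last a collagen cross-linking enzyme. JAG1 was closest to FBXO32 (0.983), SULF2 (0.982) and CXCL8 (0.982). CXCL8, a chemokine of the senescent secretory programme, had means of 72.1, 1691, 193 and 1585 in the same order of groups. JAG2 was closest to FBXO44 (0.988), RSRP1 (0.986) and FER1L4 (0.986), and NOTCH2 to APC (0.971), RC3H2 (0.963) and HIF1A (0.961). HEY1 was closest to PDZRN3 (0.95), TRAFD1 (0.94) and GORAB (0.939).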

How the data were processed

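Total RNA was isolated in TRIzol and poly(A) RNA was sequenced, per the labels' protocols. The submitters' processing notes name Trimmomatic 0.38.1, HISAT2 2.2.1, featureCounts 2.0.3, FastQC 0.74, MultiQC, DESeq2 2.11.40.8 and the builds hg38 and GRCh38. The order of these steps, the annotation and the strand setting are not given in the sources used here. The authors deposited a signal per gene, normalized counts in the form of reads divided by a size factor per library, for 12 libraries in 4 groups of 3. Every value above 0 (160380 of 160380, tolerance 0.01) was a whole multiple of the value of 1 read. Depth over the listed genes was 14106799 to 21762412 reads per library, so the counts of low genes limit their precision. The value of 1 read in library A116 was 0.99, so close to 1 that its reads rest on that step. Columns name a group and a library number, with no replicate number.

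limma 3.58.1 in R 4.3.3 was fitted with a mean-variance trend to log2(normalized count + 1) over all 12 libraries as 4 group means. The filter was a mean of 10 or more over the libraries (11242 genes, 7 of the 8 members), and p-values were adjusted over all of them by Benjamini-Hochberg. Calls are at adjusted p below 0.05. Errors are SDs over libraries, and fold changes of low genes are understated by the added 1. Ratios within libraries were compared by exact two-sided permutation tests. Intervals and limits on reads (95%, floor of 3 reads) are exact Poisson or binomial and cover counting error only. Alternatives were pseudocounts of 0.1 and 5, no filter or a mean of 50, other scalings, no trend, only the 2 groups compared, edgeR 4.0.16 and DESeq2 1.42.0 on the recovered reads, leaving out each library, an adjusted p under 0.01 and a 2-fold minimum. On the recovered reads edgeR called 8150 genes between DMSO and proliferating libraries, 5374 with palbociclib and 556 with ruxolitinib against DMSO, where limma called 8134, 5432 and 508. Leaving out A119, A120 and A126 together was added after seeing the data. Members and gene lists were chosen with earlier results of these data known. Named pathway genes are called genes whose higher group averaged 100 or more, at most the 2 largest changes per list, comparison and direction, plus defining genes near 0. Gene coordinates are those of RefSeq. The likeness rule took the 3 highest correlations per member.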

Additional observations from a re-analysis of the deposited data

How the results depend on the processing

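No paired analysis was possible because the columns carry no replicate number. Of 2458 values of single genes under an alternative, 2327 kept direction and call, 98 lost and 21 gained a call, and 12 reversed, none of them called as reported. The reversed log2 differences were HEY1, DMSO minus proliferating, at the same total (0.11), at the same upper quartile (0.038) and without A117 (range -0.23 to 0.12 over libraries left out); NOTCH2, palbociclib minus DMSO, without A120 (range -0.20 to 0.062); NOTCH2, palbociclib minus ruxolitinib, at the same total (-0.15), at the same upper quartile (-0.030), under quantile normalization (-0.16) and without A119 (range -0.075 to 0.19); JAG2, palbociclib minus ruxolitinib, under quantile normalization (0.038); and NOTCH3, ruxolitinib minus proliferating, at the same total (0.11), at the same upper quartile (0.076) and under quantile normalization (0.083).

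With a 2-fold minimum the members called were 3 for DMSO against proliferating, 2 for palbociclib against DMSO, 0 for ruxolitinib against DMSO, 2 for palbociclib against ruxolitinib and 3 for palbociclib against proliferating, and the pathway genes called were 9, 2, 1 (palbociclib against ruxolitinib), 9 (palbociclib against proliferating) and 8 (ruxolitinib against proliferating). At an adjusted p under 0.01 the pathway genes called were 10 for palbociclib against DMSO and 9 for palbociclib against ruxolitinib, and 0 members were called for ruxolitinib against DMSO. For ruxolitinib against DMSO, members called numbered 1 without the trend and 4 with only the 2 groups, and pathway genes 5 with only the 2 groups and 3 without A119, A120 and A126. Without those libraries, 3 members were called for palbociclib against ruxolitinib, and the lone palbociclib library was assumed to vary like the other groups. Leaving out each library in turn gave 0 to 2 members and 0 to 1 pathway genes for ruxolitinib against DMSO. The share of all tested genes called under these settings is not given, so these counts have no background beside them. The causes were not tested. Depth limits HEY2 and the proliferating level of JAG2.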

Other observations

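Low pathway genes, picked after their values were seen and near the filter on low values, are given as values with no test. The microfibril gene MFAP5 held 1.11 to 3.11 normalized counts in proliferating libraries and 21.3 to 43.9 with DMSO. HES2, another HES repressor, held 0 to 2.08 and 13 to 20.8 in the same groups. The divergent Delta ligand DLL3 had a mean of 15.8 normalized counts with DMSO and 6.11 with palbociclib.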
